A study of Mus musculus with 6 samples.

Results

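AP-1 is a pair of basic leucine zipper (bZIP) proteins that binds DNA as a dimer, and the 10 genes described here encode its classical subunits and their close relatives. They comprise the JUN family (Jun, Junb and Jund), the FOS family (Fos, Fosb, Fosl1 and Fosl2) and the ATF and BATF relatives that dimerise with JUN proteins (Atf3, Batf and Batf3). They were listed by gene symbol with earlier results of these data known, the rule set no limit on their values, and all 10 were among the 17924 genes of the table. CTL and Nelfb-/- cells were measured by bulk RNA-seq, with 3 biological replicates each, after 14 days in adipocyte differentiation medium. The cells were fibroblasts cultured from the dermis of P0 neonatal mice on a C57BL/6J background. CTL mice were Nelfb fl/wt or wt/wt with Pdgfra-Cre +/-, and deleted mice were Nelfb fl/fl with Pdgfra-Cre +/-, so that both groups carried Cre driven by the Pdgfra promoter. Which of the CTL genotypes each CTL library came from is not given in the labels.

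Most AP-1 genes are immediate early genes, which are transcribed within minutes of a growth factor, stress or cytokine signal without new protein synthesis. MAP kinases pass the signal to factors such as SRF with its ETS partners, ATF2 and JUN itself, and the messenger RNAs are short-lived. NELF, of which Nelfb is a subunit, holds RNA polymerase II in the promoter-proximal pause, and immediate early genes are among those known to carry paused polymerase. In preadipocytes, FOS and JUN proteins are known to be induced early after the hormonal cocktail, long before the day measured here.

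Values are given in CPM, counts of reads scaled to 1e+06 reads summed over the genes of the table. Changes are given as log2 fold changes (log2FC) of Nelfb-/- over CTL with their standard error (SE), from limma on log2(reads at a common depth + 1). They were called at an adjusted p of at most 0.05 and at least 2-fold, and p measures the spread between these cultures. Libraries held between 17.2 and 29.4 M reads (M, 1e+06) on listed genes, and 3 reads were worth 0.102 to 0.175 CPM. Nelfb itself, the deleted gene, lay between 17.3 and 22.3 CPM in CTL and between 3.90 and 5.55 CPM in Nelfb-/- libraries. CTL replicate 3 and Nelfb-/- replicate 1 stood at opposite ends of the second principal component of all genes, which held 27.7% of the variance, so member values are also given without both. The cells are labelled adipocytes, and the summed adipocyte markers lay at 23860 to 38561 CPM in CTL and 16625 to 25419 CPM in Nelfb-/- libraries. Of these 10 markers, 7 had an estimate below 0, with a median log2FC of -0.47 over the list. With all libraries 0 were called lower by limma, and 1 was without CTL replicate 3, with or without Nelfb-/- replicate 1. Adipoq (-1.07), Plin1 (-1.02) and Fabp4 (-1.04) lay past 2-fold lower without passing (limma, adjusted p 0.125 to 0.239). The authors report these genes lower by RT-qPCR. Only 1 marker, Lep, was called higher, a call lost without CTL replicate 2 or Nelfb-/- replicate 2 or 3. The 10 macrophage markers summed to 165 to 635 CPM in CTL and to 1646 to 5149 CPM in Nelfb-/- libraries, highest in replicate 1, and 9 of them were called higher, but 2 without CTL replicate 2 and 1 without Nelfb-/- replicate 3. No T or B cell marker was in the table. In bulk samples, a change in the share of cells of a type and a change in RNA per cell cannot be told apart.

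Of the 10 AP-1 genes, 1 was called higher in Nelfb-/- cells, against 7.58% of the 16252 genes tested. None was called lower by limma, against 3.64% of all genes, and 3 had an unadjusted p under 0.05. The called gene was Junb, and the 3 were Junb, Jund and Batf, all with a higher mean in Nelfb-/- cells. These 3 were also the members whose Nelfb-/- libraries all lay above the CTL libraries, where 22% of all genes tested did so. No member had its groups apart in the other direction, against 16.1% of all genes, and the libraries of the other 7 members overlapped. The median log2FC was 0.44 over the members and 0.068 over all genes tested, and 8 members had an estimate above 0, of which Atf3 turned below 0 under median-ratio and upper-quartile scaling.

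**Figure D1:**
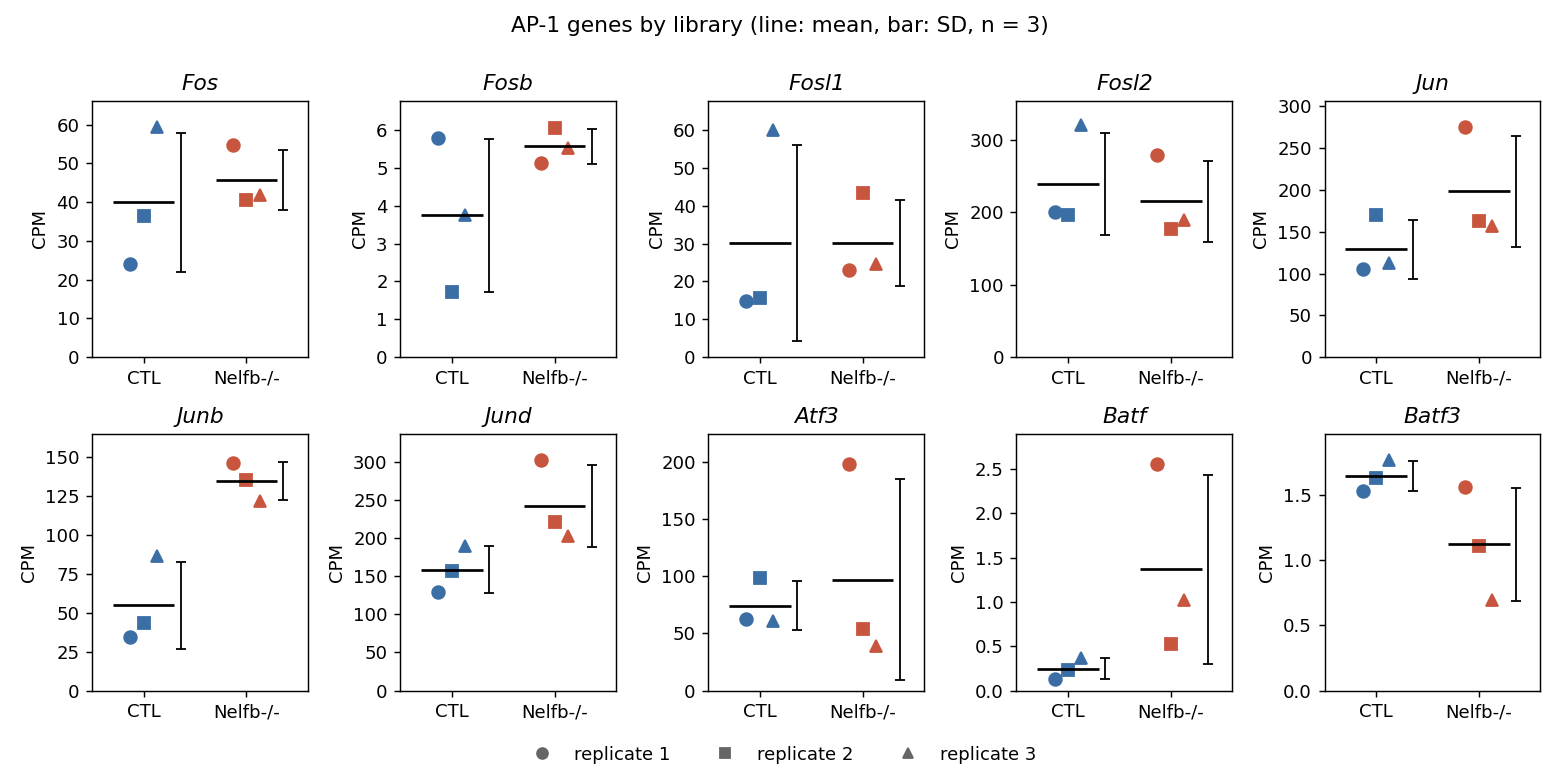
CPM (y axis, from 0) of each AP-1 gene in the 3 CTL and 3 Nelfb-/- libraries (x axis), with the mean as a line and the SD as a bar. Junb, Jund and Batf have every Nelfb-/- library above every CTL library, and the other 7 genes overlap.

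The promoters of Junb, Jun and Fos are shown because these are textbook paused or signal-induced promoters and because their RefSeq starts lie within 30 bases of the gene start in the authors' table. Each run covers 250 bases before to 50 after the RefSeq start on GRCm38.p6, 5′ to 3′ on the strand of the gene. The coordinates are chr8:84978699-84978998 on the minus strand for Junb, chr4:95052173-95052472 on the minus strand for Jun and chr12:85473640-85473939 on the plus strand for Fos. Capitals mark a TATA box (TATAAA), a CRE or AP-1-like site (TGACNTCA) and a MEF2 site, on either strand.
Junb: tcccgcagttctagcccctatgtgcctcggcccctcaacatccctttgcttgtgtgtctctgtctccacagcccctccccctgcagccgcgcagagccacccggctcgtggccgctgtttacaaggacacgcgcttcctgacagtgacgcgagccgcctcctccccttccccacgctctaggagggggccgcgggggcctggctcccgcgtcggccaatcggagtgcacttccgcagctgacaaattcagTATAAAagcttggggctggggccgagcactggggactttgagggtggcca
Jun: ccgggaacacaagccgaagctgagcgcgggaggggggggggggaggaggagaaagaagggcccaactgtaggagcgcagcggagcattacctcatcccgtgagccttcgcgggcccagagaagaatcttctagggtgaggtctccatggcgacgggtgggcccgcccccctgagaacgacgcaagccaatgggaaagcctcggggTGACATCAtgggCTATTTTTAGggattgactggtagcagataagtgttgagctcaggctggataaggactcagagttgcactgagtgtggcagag
Fos: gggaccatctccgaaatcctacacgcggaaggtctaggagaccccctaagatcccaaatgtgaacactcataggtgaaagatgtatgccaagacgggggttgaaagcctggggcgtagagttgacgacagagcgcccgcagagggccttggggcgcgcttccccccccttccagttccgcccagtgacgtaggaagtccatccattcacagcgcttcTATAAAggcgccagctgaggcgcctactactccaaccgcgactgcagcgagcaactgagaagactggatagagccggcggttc

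The TATA box was in the Junb and Fos windows, and in 13.6% of the 32851 windows of the table. In Fos it began at position -33. In Junb it began at position 1 of the RefSeq start, which lies 30 bases upstream of the gene start in the authors' table. Jun held no TATAAA, but TGACATCA began at -45 and a MEF2 match at -33. TGACNTCA was in 8.83% of windows, and of the members only Jun held it. The MEF2 site was in 0.557% of windows, and in those of Jun and Atf3. A CRE half-site (TGACG, which can lie within TGACNTCA) was in the windows of Atf3, Fosb, Junb, Fos and Batf, and in 20.8% of all windows. The GC box (GGGCGG) was in 7 of the 9 member windows and in 35.7% of all, and the CCAAT box in 3 and in 37.4%. GC content ran from 46.7% to 75.7% in the member windows, with a median of 52.7% over all windows. Its part in these counts was not tested. The consensus AP-1 site TGACTCA, held by 5.20% of windows, and the CArG box, held by 1.63%, were in none of the 9 member windows, which says only that these letters are not in the 300 bases searched. A match is a string of letters and not a measured site. Fosl1 had no entry, and the RefSeq starts of Fosl2, Jund, Batf3 and Atf3 lay 567 to 34706 bases from the gene start of the authors' table.

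JUN proteins can form dimers with each other and are the obligate partners of FOS proteins. JUNB is a weaker activator than JUN at many sites and is known to oppose it in proliferation. Junb (ENSMUSG00000052837, chr8:84976910-84978718, minus strand, 1 exon) had CTL values of 34.3, 43.6 and 86.6 CPM and Nelfb-/- values of 146, 136 and 122 CPM (replicates 1, 2 and 3, the order kept below). The 3 Nelfb-/- libraries lay close together and above all CTL libraries, and CTL replicate 3 stood above the other CTL libraries. The means were 54.8 ± 27.9 and 135 ± 12.3 CPM (SD, n = 3). Junb rose by a log2FC of 1.41 (SE 0.34, limma, adjusted p = 0.0367), which is 2.65-fold with a 95% interval of 1.52 to 4.62. Leaving out any 1 library other than CTL replicate 3 ended the call (limma, adjusted p 0.0702 to 0.128), while the log2FC stayed between 1.13 and 1.48. Without both CTL replicate 3 and Nelfb-/- replicate 1, a removal chosen after the data were seen, it was 1.73 (limma, adjusted p = 0.000165).

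Jund encodes the JUN protein that is expressed most steadily in resting cells. Jund (ENSMUSG00000071076, chr8:70698949-70700616, plus strand, 1 exon) lay at 129, 156 and 190.0 CPM in CTL and at 303, 220.5 and 202 CPM in Nelfb-/- libraries. The groups did not overlap, but CTL replicate 3 and Nelfb-/- replicate 3 lay near each other. The means were 158 ± 30.5 and 242 ± 53.4 CPM (SD, n = 3). The log2FC was 0.60 (SE 0.22, 95% interval 0.08 to 1.13, limma, adjusted p = 0.113), which did not pass. Without CTL replicate 3 and Nelfb-/- replicate 1 the log2FC was 0.57 with an adjusted p of 0.00604 from limma, still under 2-fold.

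Jun, the founding member, is phosphorylated by JNK and can activate its own promoter. Jun (ENSMUSG00000052684, chr4:95049034-95052222, minus strand, 1 exon) was measured at 105, 169 and 113 CPM in CTL and at 275, 163 and 157 CPM in Nelfb-/- libraries. Nelfb-/- replicate 1 stood above the rest, and the other Nelfb-/- libraries lay within the CTL range. The log2FC was 0.60 (SE 0.29, 95% interval -0.08 to 1.29, limma, adjusted p = 0.201). The antisense transcript Junos overlaps Jun on the opposite strand, and whether counting used strand is not given in the sources used here, so that without it reads of Jun and Junos cannot be told apart. Junos was low, at 0.638, 0.430 and 0.697 CPM in CTL and at 2.28, 1.29 and 1.15 CPM in Nelfb-/- libraries. Its groups did not overlap, and its log2FC of 1.31 (SE 0.40, limma, adjusted p = 0.0736) did not pass.

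FOS proteins cannot dimerise with themselves and bind DNA only with a partner such as JUN. Fos (ENSMUSG00000021250, chr12:85473890-85477273, plus strand), the classical serum-induced gene, lay at 24.0, 36.5 and 59.5 CPM in CTL and at 54.7, 40.7 and 41.8 CPM in Nelfb-/- libraries. The CTL libraries spanned the whole Nelfb-/- range. The log2FC was 0.28 (SE 0.33, 95% interval -0.52 to 1.07, limma, adjusted p = 0.605). Fosb (ENSMUSG00000003545, chr7:19302696-19310051, minus strand), which also gives the stable short form known from neurons, was measured at 5.77, 1.73 and 3.74 CPM in CTL and at 5.12, 6.05 and 5.51 CPM in Nelfb-/- libraries. CTL replicate 1 lay among the Nelfb-/- libraries and the other CTL libraries below them. Its log2FC was 0.72 (SE 0.44, 95% interval -0.33 to 1.77, limma, adjusted p = 0.305). When 1 library was left out it ran from 0.25 (without CTL replicate 2) to 1.11 (without CTL replicate 1).

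Fosl1 and Fosl2 encode FRA1 and FRA2, which lack the strong activation domain of FOS and accumulate later after a stimulus. Fosl1 (ENSMUSG00000024912, chr19:5447547-5455946, plus strand) was measured at 14.8, 15.8 and 59.9 CPM in CTL and at 22.9, 43.2 and 24.5 CPM in Nelfb-/- libraries. Its highest value was in CTL replicate 3 and its lowest values were in the other CTL libraries, so that the Nelfb-/- libraries lay between them. The log2FC was 0.26 (SE 0.57, 95% interval -1.11 to 1.63, limma, adjusted p = 0.786). Without CTL replicate 3 and Nelfb-/- replicate 1 it was 1.09 (limma, adjusted p = 0.0111), and Fosl1 was then called higher. Its sign turned without CTL replicate 1 (-0.086), CTL replicate 2 (-0.043) or Nelfb-/- replicate 2 (-0.025). The 6 proliferation markers, none of which was called with all libraries and all 6 of which were called higher in the fit where Fosl1 was, were high in CTL replicate 3 and Nelfb-/- replicates 2 and 3, with sums of 356, 398 and 350 CPM against 69.9 to 75.1 CPM in the other libraries, and their part in the Fosl1 values was not tested. Fosl1 also overlaps Ccdc85b on the opposite strand, which lay at 66.9, 67.5 and 113 CPM in CTL and at 59.9, 71.6 and 58.2 CPM in Nelfb-/- libraries.

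Fosl2 (ENSMUSG00000029135, chr5:32135801-32157842, plus strand) lay at 200.3, 197 and 320 CPM in CTL and at 279, 177 and 190 CPM in Nelfb-/- libraries. CTL replicate 3 and Nelfb-/- replicate 1 stood above the other 4 libraries, which lay together. The log2FC was -0.14 (SE 0.27, 95% interval -0.78 to 0.50, limma, adjusted p = 0.751).

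ATF3 is a stress-induced bZIP factor that can repress as a homodimer and also pairs with JUN. Atf3 (ENSMUSG00000026628, chr1:191170296-191218039, minus strand) was measured at 62.8, 98.8 and 60.9 CPM in CTL and at 198, 53.7 and 39.1 CPM in Nelfb-/- libraries. The highest value and both of the lowest were in Nelfb-/- libraries. The log2FC was 0.05 (SE 0.59, 95% interval -1.38 to 1.47, limma, adjusted p = 0.969), and its sign turned without Nelfb-/- replicate 1 (-0.66) and under median-ratio scaling (-0.022). Without CTL replicate 3 and Nelfb-/- replicate 1 it was -0.78 (limma, adjusted p = 0.0308), under 2-fold.

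BATF and BATF3 lack an activation domain, pair with JUN proteins and are best known from lymphocytes and dendritic cells. Batf (ENSMUSG00000034266, chr12:85686669-85709087, plus strand) was measured at 0.135, 0.233 and 0.374 CPM in CTL and at 2.56, 0.524 and 1.02 CPM in Nelfb-/- libraries. These values rest on 3, 5 and 11 reads in CTL and on 54, 9 and 25 reads in Nelfb-/- libraries, so that the groups did not overlap in CPM although Nelfb-/- replicate 2 held fewer reads than CTL replicate 3. The log2FC was 2.08 (SE 0.66, 95% interval 0.50 to 3.66, limma, adjusted p = 0.0808), and Batf passed only without CTL replicate 3 and Nelfb-/- replicate 1, at 1.80 (limma, adjusted p = 0.0306). The summed macrophage markers were also highest in Nelfb-/- replicate 1 and next highest in replicate 3. In CTL libraries their order was the reverse of that of Batf, at 635, 336 and 165 CPM. Of the 9 dendritic cell markers, 5 were tested, and Flt3 and H2-Aa were not in the table. Of those tested, 2 were called higher and 1 lower, against 7.58% and 3.64% of all genes. None was called higher without CTL replicate 1 or Nelfb-/- replicate 3, and the call lower was lost without the latter. The part of macrophages and dendritic cells in the Batf values was not tested. Batf3 (ENSMUSG00000026630, chr1:191097847-191108945, plus strand), which is needed for cross-presenting dendritic cells, lay at 1.53, 1.63 and 1.77 CPM in CTL and at 1.56, 1.11 and 0.694 CPM in Nelfb-/- libraries. Nelfb-/- replicate 1 lay within the CTL range and the others below it. Its log2FC was -0.60 (SE 0.37, 95% interval -1.49 to 0.28, limma, adjusted p = 0.309).

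**Figure D2:**
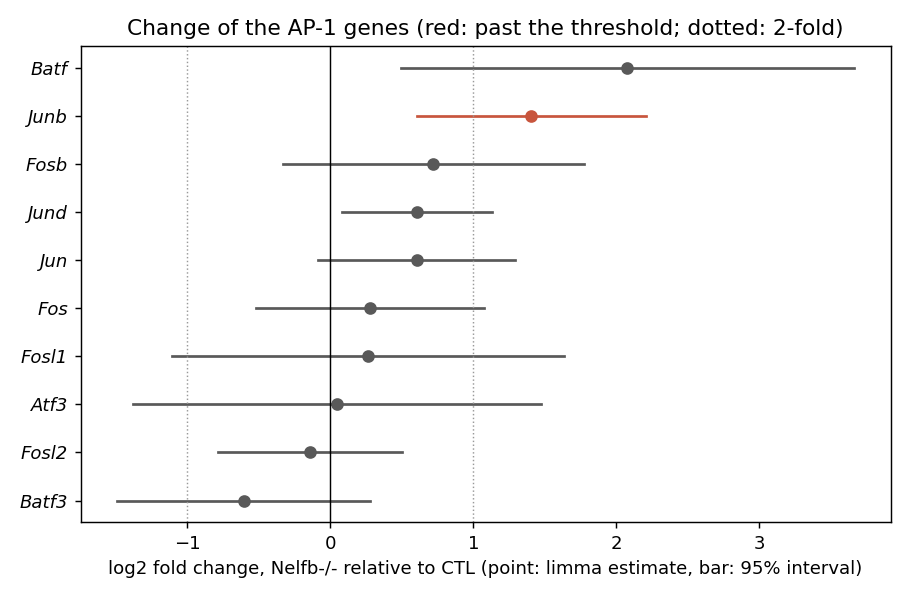
Log2 fold change of each AP-1 gene (x axis; points, limma estimates; bars, 95% intervals; dotted lines, 2-fold), ordered by its estimate. Junb is the 1 gene past the threshold, and the intervals of Jund and Batf also lie above 0.

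Without both CTL replicate 3 and Nelfb-/- replicate 1, 3 of the 10 members (Junb, Fosl1 and Batf) were called higher, against 17.7% of the 16204 genes then tested. None was called lower by limma in that fit, against 9.37% of those genes, with Atf3 at an adjusted p under 0.05 but under 2-fold. The log2FC of the members not given above was then 0.26 for Jun, 0.48 for Fos, 0.86 for Fosb, -0.12 for Fosl2 and -0.82 for Batf3, and their adjusted p from limma lay between 0.0737 and 0.319.

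The AP-1 genes varied more between libraries of a group than most genes did. The residual SD on the log2 scale had a median of 0.50 over the members and of 0.33 over all genes tested, and 9 of 10 members lay above the latter. Atf3 was at the 97.1st percentile and Fosl1 at the 95.3rd of the 1000 tested genes nearest to each in level. On that measure Jund was at the 60.3rd percentile and Batf3, the lowest member, at the 28.4th. Among all genes, Jund was the member below the median, at the 44.3rd percentile. Nelfb-/- replicate 1 was the highest Nelfb-/- library for 8 members, and CTL replicate 3 was the highest CTL library for 7. CTL replicate 1 was the lowest of all 6 libraries for 6 members.

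**Figure D3:**
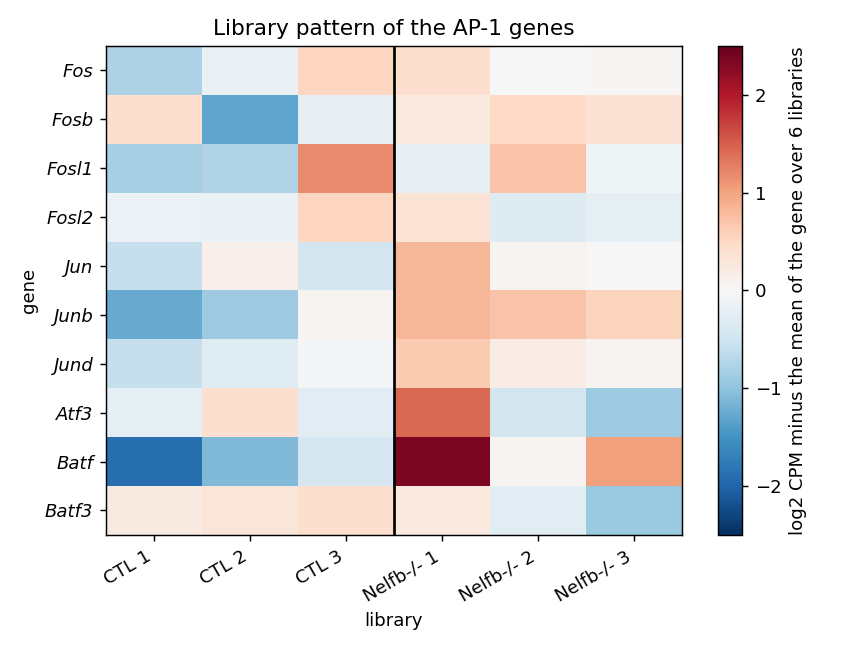
Log2 CPM of each AP-1 gene (y axis) in each library (x axis) minus the mean of that gene over the 6 libraries, as colour. Batf, Atf3, Jun, Junb and Jund are highest in Nelfb-/- replicate 1, and Fos, Fosl1, Fosl2 and Batf3 are highest in CTL replicate 3.

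By a fixed measure of likeness, the root mean square difference of centred log2 values over the 6 libraries, Tm4sf1 (0.116), Dtx1 (0.157) and Rab32 (0.158) were the genes nearest to Junb. Tm4sf1, a tetraspanin-like membrane protein, lay at 3.83, 4.81 and 11.8 CPM in CTL and at 16.2, 16.1 and 15.8 CPM in Nelfb-/- libraries. Like Junb, it had CTL replicate 3 between the other CTL libraries and the Nelfb-/- libraries, a likeness that the choice of the gene fixes.

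The median span of the members was 7878 bases against 19555 bases over the 15924 tested genes with a gene model, with Fosl2, Batf and Atf3 above the latter, and the members' median number of exons was 4 against 6. Jun, Junb and Jund each have 1 exon, as 15.2% of those genes do. Some lie near each other. On chromosome 12 Fos and Batf stand on either side of Jdp2, a repressive AP-1 relative, with gaps of 122 and 46.8 kb. Jdp2 lay at 39.7, 36.3 and 46.5 CPM in CTL and at 58.2, 38.4 and 48.0 CPM in Nelfb-/- libraries, and did not pass (log2FC 0.22, SE 0.19, limma, adjusted p = 0.467). On chromosome 1, 61.4 kb separate Batf3 from Atf3, whose estimates were -0.60 and 0.05 on the log2 scale.

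Levels were compared between genes as CPM per kb of exon. For Junb this length, 2301 bases, reaches beyond its gene in the authors' table, which holds 1809 bases. In CTL cells Jund was the most abundant member at 95 ± 18.3 CPM per kb (SD, n = 3), followed by Jun at 40.5, Atf3 at 34.4, Fosl2 at 24.7, Junb at 23.8, Fos at 17.0 and Fosl1 at 14.8. Batf3 at 1.03, Fosb at 0.60 and Batf at 0.176 were far lower. The libraries of neighbours in this order overlapped except between Jund and Jun, Fosl1 and Batf3, Batf3 and Fosb, and Fosb and Batf. In Nelfb-/- cells Jund was again first at 145 ± 32.0 CPM per kb and, with 2301 bases for Junb, Jun was next at 62.2. Junb, which stood behind Atf3 and Fosl2 in CTL cells, lay ahead of both at 58.5 ± 5.33, against 45.0 for Atf3 and 22.2 for Fosl2. Fos at 19.4 and Fosl1 at 14.9 followed, and the last were Batf at 0.973, Fosb at 0.891 and Batf3 at 0.702. Neighbours in this order overlapped except between Jund and Jun and between Fosl1 and Batf. With 1809 bases, Junb was at 30.3 ± 15.4 CPM per kb in CTL cells, above Fosl2. In Nelfb-/- cells Junb was then at 74.4 ± 6.78 CPM per kb, above Jun.

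The summed JUN family was 125, 166 and 187 CPM per kb in CTL and 331, 242 and 223 CPM per kb in Nelfb-/- libraries, with no overlap. Jund held 56.5% to 61.8% of it in CTL and 54.2% to 54.8% in Nelfb-/- libraries. Junb held 11.9%, 11.4% and 20.1% in CTL and 19.2%, 24.3% and 23.7% in Nelfb-/- libraries, so that its share in CTL replicate 3 was above that in Nelfb-/- replicate 1. With 1809 bases for Junb the sums still did not overlap. Junb then held 14.7%, 14.1% and 24.3% in CTL and 23.2%, 29.0% and 28.3% in Nelfb-/- libraries. Jund then held 54.8% to 59.9% in CTL and 51.0% to 52.1% in Nelfb-/- libraries. The summed FOS family was 39.1, 43.9 and 88.4 CPM per kb in CTL and 64.2, 57.8 and 50.3 CPM per kb in Nelfb-/- libraries, with CTL replicate 3 above and the other CTL libraries below all Nelfb-/- libraries. Fosl2 held 37.4% to 52.9% of it in CTL and 31.6% to 45.0% in Nelfb-/- libraries, and Fosb held at most 2.36% in any library.

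**Figure D4:**
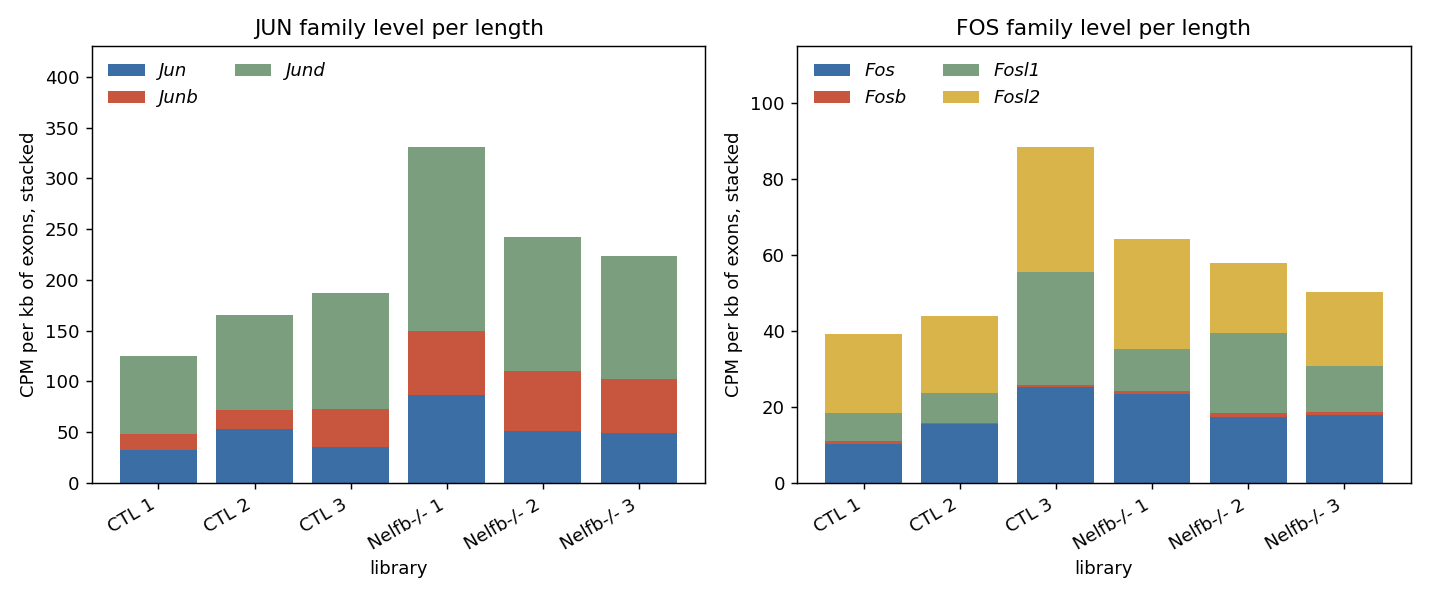
Stacked CPM per kb of exon (y axis, from 0) of the JUN family (left) and the FOS family (right) in each library (x axis). With 2301 bases for Junb, the JUN sum is 223 or more in every Nelfb-/- library and 187 or less in every CTL library. The FOS sum is highest in CTL replicate 3 at 88.4.

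The other genes of the pathway were taken from lists written from general knowledge, with earlier results of these data known. Their counts stand beside the 7.58% of all genes called higher and the 3.64% called lower. Among 24 genes of the MAP kinase cascades tested, which carry the signal to AP-1 and here include the JNK scaffolds Mapk8ip1 and Mapk8ip3, 1 was called higher and 0 lower by limma, with a median log2FC of 0.08. This was Map3k14, the kinase of the alternative NF-kappaB route, at 9.65, 9.99 and 10.03 CPM in CTL and at 25.0, 34.1 and 34.5 CPM in Nelfb-/- libraries (log2FC 1.64, SE 0.18, limma, adjusted p = 0.0048). Of 9 MAP kinase phosphatases tested, which end the signal, 2 were called higher and 0 lower, with a median of 0.28, and 1 was called higher under median-ratio scaling. Dusp6, which acts on ERK, rose from 14.1, 15.0 and 22.5 to 38.8, 42.4 and 67.5 CPM (log2FC 1.51, SE 0.28, limma, adjusted p = 0.0177), and Dusp7 rose by a log2FC of 1.01, just past 2-fold (SE 0.18, limma, adjusted p = 0.0167). The list of SRF and ETS factors also holds the SRF coactivators Mrtfa, Mrtfb and Myocd. Of its 9 genes, 1 was called higher and 0 lower, with a median of 0.55. Ets1 was at 22.8, 21.3 and 39.6 CPM in CTL and at 59.9, 59.7 and 54.5 CPM in Nelfb-/- libraries (log2FC 1.11, SE 0.25, limma, adjusted p = 0.0309). The call of Ets1 was lost when any 1 library other than CTL replicate 3 was left out, and no phosphatase was called without CTL replicate 1 or 2 or Nelfb-/- replicate 2 or 3. Without CTL replicate 3 and Nelfb-/- replicate 1, 3 genes of the MAP kinase cascades were called higher and 3 lower, 3 phosphatases higher and 1 lower, and 3 SRF and ETS factors higher and 1 lower, where 17.7% and 9.37% of all genes were.

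Other bZIP factors pair with AP-1 proteins or resemble them. Of 22 tested, 1 was called higher and 3 lower, against 7.58% and 3.64% of all genes, 16 had an estimate below 0, and the median was -0.18. Maff, a small MAF that lacks an activation domain, fell from 66.5, 89.7 and 118 CPM to 39.8, 33.6 and 26.1 CPM (log2FC -1.45, SE 0.26, limma, adjusted p = 0.0162). Nfe2l3, a CNC factor that pairs with small MAFs, fell from 3.38, 4.11 and 2.11 CPM to 0.332, 0.407 and 0.326 CPM (log2FC -2.97, SE 0.36, limma, adjusted p = 0.0062), and Atf5 fell by 1.05 on the log2 scale (SE 0.20, limma, adjusted p = 0.0195). In the fit without CTL replicate 3 and Nelfb-/- replicate 1, 1 was called higher and 5 lower, where 17.7% and 9.37% of all genes were. With 1 library left out, the count called lower ran from 1 (without Nelfb-/- replicate 2 or 3) to 5 (without Nelfb-/- replicate 1).

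Among 18 other immediate early genes tested, 3 were called higher and 0 lower, against 7.58% and 3.64% of all genes, 15 had an estimate above 0, and the median log2FC was 0.51. The 3 were Egr3, a zinc finger factor, at 0.747 to 2.07 CPM in CTL and 3.96 to 5.01 CPM in Nelfb-/- libraries, and the orphan nuclear receptors Nr4a2, at 3.36 to 4.55 and 8.77 to 16.8 CPM, and Nr4a1, at 10.9 to 15.9 and 32.1 to 38.6 CPM. Their log2FCs were 1.78 (SE 0.40), 1.72 (SE 0.30) and 1.48 (SE 0.19), with adjusted p from limma of 0.0310, 0.0158 and 0.0072. Leaving out CTL replicate 1 or 2 or Nelfb-/- replicate 2 or 3 left 1 gene of this list called higher. Without CTL replicate 3 and Nelfb-/- replicate 1, 6 were called higher and 0 lower by limma, where 17.7% and 9.37% of all genes were.

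Of 25 genes tested among those known as AP-1 targets in other cells, 8 (32%) were called higher and 1 lower, where 7.58% and 3.64% of all genes were. The median log2FC was 1.20, and 22 had an estimate above 0. Without CTL replicate 3 and Nelfb-/- replicate 1, 14 were called higher and 1 lower, where 17.7% and 9.37% of all genes were, and with 1 library left out the count called higher ran from 2 (without Nelfb-/- replicate 3) to 14 (without CTL replicate 3). Ccl2, a monocyte chemokine, rose from 3.16, 2.85 and 9.25 CPM to 63.6, 54.3 and 61.0 CPM (log2FC 3.75, SE 0.44, limma, adjusted p = 0.0058), and Lif, a cytokine of the interleukin 6 family, rose from 1.44, 0.98 and 2.62 to 6.5, 10.7 and 6.28 CPM (log2FC 2.26, SE 0.42, limma, adjusted p = 0.0178). Il6 held 1 read in each CTL library and 18, 37 and 49 reads in the Nelfb-/- libraries, a ratio of summed reads per depth of 40.3 with an exact Clopper-Pearson 95% interval of 13.4 to 199 that covers counting error only. Its log2FC was 4.20 (SE 0.50, limma, adjusted p = 0.0060), which is 18.4-fold. The gene called lower was Vegfa, an angiogenic factor, at 437, 570 and 586 CPM in CTL and at 355, 218 and 221 CPM in Nelfb-/- libraries (log2FC -1.03, SE 0.25, limma, adjusted p = 0.0371). It did not pass when any 1 library other than Nelfb-/- replicate 1 was left out. Binding of AP-1 to these genes was not analysed here, and the part of the cells behind the macrophage markers in these values was not tested. Of the other cell types, all 6 melanocyte markers were called higher, with sums of 7.67 to 9.35 CPM in CTL and 81.1 to 117 CPM in Nelfb-/- libraries, while the summed fibroblast markers, 1 of 10 called higher (7 without CTL replicate 3 and Nelfb-/- replicate 1), overlapped between groups at 6077 to 20929 and 10732 to 37244 CPM. The keratinocyte markers, 1 of 4 tested called higher (Krt14), summed to 2.79 to 3.45 CPM in CTL and 7.11 to 15.1 CPM in Nelfb-/- libraries, and the endothelial markers, 1 of 5 called higher (Emcn), summed to 7.24 to 10.5 and 8.09 to 21.95 CPM. No keratinocyte marker was called when any 1 library other than Nelfb-/- replicate 1 was left out. No endothelial marker was called without CTL replicate 2 or any 1 Nelfb-/- library. Without CTL replicate 3 and Nelfb-/- replicate 1, 3 keratinocyte and 2 endothelial markers were called higher and 2 endothelial markers lower. The part of these cells in the AP-1 values was not tested.

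**Figure D5:**
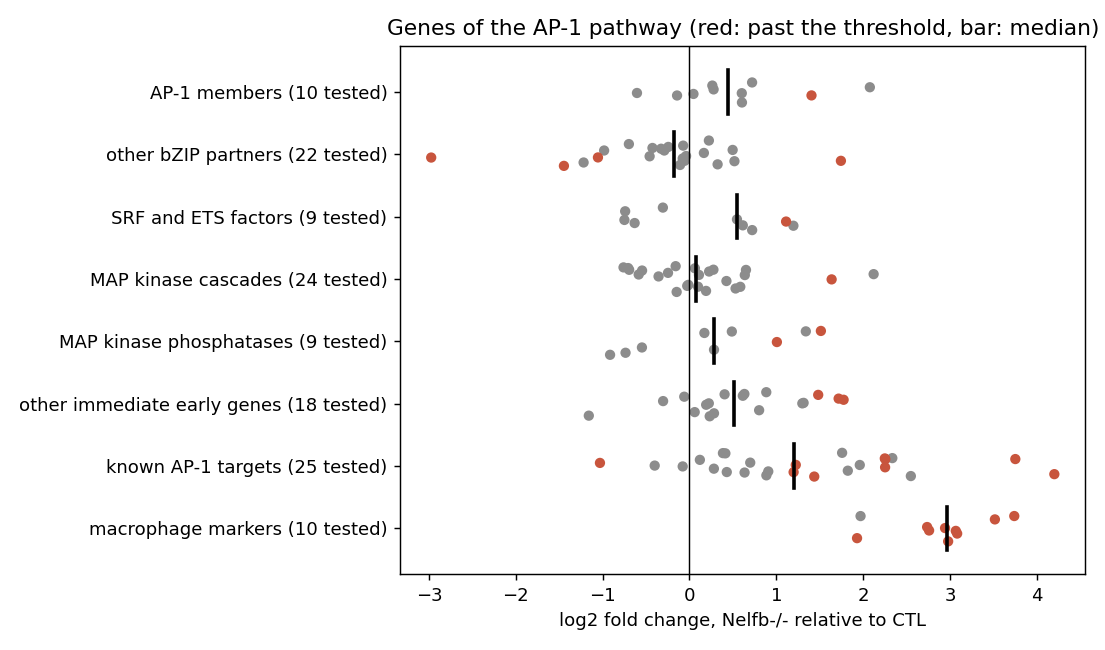
Log2 fold change (x axis) of each tested gene of the AP-1 members, the lists of the pathway and the macrophage markers (y axis); red points passed the threshold and bars are medians. The AP-1 members have a median of 0.44, the other bZIP partners -0.18, the known AP-1 targets 1.20 and the macrophage markers 2.96.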

How the data were processed

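The authors deposited 1 table of normalized values for 17924 genes in 6 libraries (CTL 1 to 3 and Nelfb-/- 1 to 3). The deposited values are CPM with an offset of 0.0001, without correction for gene length. The submitters' processing notes name STAR 2.7, Partek 9.0.20.0202 and mm10, while the authors' methods give DeSeq2 for alignment, an ANOVA in Partek and a minimum of 10 reads. The counting is not given in the sources used here.

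The step between the lowest values gave the depth, 17.2 M to 29.4 M reads (M, 1e+06). Of the values worth 20 reads or less, only 69.5% to 72.1% were whole numbers of reads (within 0.02), so no count test was run. The interval given for the ratio of Il6 alone rests on read counts. CPM without the offset was multiplied by 22.3 M, and the 16252 genes averaging 10 reads or more went into limma (version 3.58.1, R 4.3.3) as log2(value + 1) with an abundance trend. The Benjamini-Hochberg adjustment ran over all of them. The procedure was tested on simulated data. Exon lengths and IDs came from GENCODE vM21, positions from the authors' table and promoters from RefSeq.

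Members and gene lists were chosen with earlier results of these data known. Named genes are the members, up to 3 called genes in each direction per pathway list, and the 3 genes most like a called member. A gene that this rule also selects is not reported here. Overlapping or neighbouring genes of the members (Junos, Ccdc85b, Jdp2) were added after values were seen. The fit was repeated under 16 other settings, of which 1, the removal of both outlying libraries, was set after looking at the values. Replicate numbers were not taken as pairs.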

Additional observations from a re-analysis of the deposited data

How the results depend on the processing

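The calls of Junb, Fosl1 and Batf depended on the processing. Fosl1 and Batf passed in 1 fit each, without both CTL replicate 3 and Nelfb-/- replicate 1. Junb passed in 9 of the 16 other fits, with a log2FC of 1.13 to 1.79 throughout and adjusted p from 0.000165 to 0.128 (limma). Members called higher numbered 0 without the abundance trend (Junb, adjusted p = 0.0539), 0 without moderation of the variances (0.120), 0 to 1 when 1 library was left out, and 3 without those libraries. Genes called in all numbered 1824, with 684 without moderation, 426 (without Nelfb-/- replicate 3) to 2479 (without CTL replicate 3) when 1 library was left out, and 4383 without both named libraries. Junb was called without CTL replicate 3 (1.79, adjusted p = 0.00467), and lost when CTL replicate 1 (1.13, 0.104) or replicate 2 (1.3, 0.128), or any of Nelfb-/- replicates 1 (1.34, 0.0702), 2 (1.40, 0.103) and 3 (1.48, 0.110), was left out. When 1 library was left out, known AP-1 targets called higher numbered 2 (without Nelfb-/- replicate 3) to 14 (without CTL replicate 3), other immediate early genes 1 to 3, genes of the MAP kinase cascades 1 to 2, MAP kinase phosphatases 0 to 3, SRF and ETS factors 0 to 2, macrophage markers 1 (without Nelfb-/- replicate 3) to 9, melanocyte markers 4 to 6 and bZIP partners called lower 1 to 5. Vegfa, the target called lower, was also lost without the trend, without moderation and with a replicate block. Without moderation 1 macrophage marker was called. The counts of 0 among phosphatases, SRF and ETS factors came when CTL replicate 1 or 2 or Nelfb-/- replicate 2 or 3 was left out, and for SRF and ETS factors also when Nelfb-/- replicate 1 was. With fewer libraries the test has fewer degrees of freedom, and the cause of these changes was not tested in any of the fits.

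Directions turned only for members with estimates near 0. Atf3 was -0.022 under median-ratio and -0.025 under upper-quartile scaling, -0.78 without both named libraries, and -0.66 to 0.51 when 1 library was left out. Under the last, Fos ran from -0.041 to 0.61, Fosl1 from -0.086 to 0.92 and Fosl2 from -0.35 to 0.087. Of 160 member estimates under alternatives, 140 kept direction and side of the threshold. Whether the replicate numbers pair the samples is not known. Deviations of same-numbered libraries correlated at 0.515, -0.395 and 0.518. Those of differently numbered libraries ran from -0.631 to 0.536, so these values cannot settle it. With a replicate block, 2175 genes were called, among them 1 member (Junb, 1.41, adjusted p = 0.0333). Depth limits Batf, at 3 to 54 reads a library. The 95% intervals of Atf3 and Fosl1 include 2-fold changes in both directions. With exon lengths from the longest transcript, Junb ranked above Jun and Fosb (1.47) above Batf (1.43 CPM per kb) in Nelfb-/- cells, where Fosl2 and Fos no longer overlapped, the CTL libraries of Batf3 and Fosb overlapped, and Fosb in CTL was 0.991 in place of 0.60 CPM per kb.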
